A study of Homo sapiens with 4 samples.

Results

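The 8 genes MTOR, RPTOR, RICTOR, PIK3CA, PIK3CB, PIK3R1, TSC1 and TSC2 were chosen by name, with earlier results of these data known. They were taken from the 36601 genes counted by single-nucleus RNA-seq in enteric ganglioids, which are three-dimensional clusters of gut neurons and their progenitors. The ganglioids were derived from H9, an established human embryonic stem cell line, in suspension. They were either left as untreated controls (2 samples) or treated with 2 µM PP121 from day 15 to day 20 of differentiation (2 samples). The labels number the differentiation replicates 1 and 2 in both groups. Samples of the same number are taken here to share a differentiation, which is a reading of these numbers. Where the text speaks of the same or own differentiation, it rests on this reading. The nuclei were annotated as day 42 in replicate 1 and day 38 in replicate 2. Differentiation and day therefore cannot be told apart, and each sample was a pool of ganglioids from one cell line.

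Class I phosphatidylinositol 3-kinase (PI3K) pairs a catalytic subunit, such as p110α (PIK3CA) or p110β (PIK3CB), with a regulatory subunit, such as p85α (PIK3R1), and makes a membrane lipid that activates AKT downstream of receptor tyrosine kinases. AKT inhibits the complex of TSC1 and TSC2, the brake on the small GTPase RHEB, and RHEB activates the kinase mTOR (MTOR). mTOR acts in complex 1, defined by the subunit RPTOR, which drives protein and lipid synthesis, and in complex 2, defined by RICTOR, which phosphorylates AKT. PP121 is a multi-targeted inhibitor of receptor tyrosine kinases that is also known to act on PI3K-family kinases including mTOR. It acts on the proteins, whereas the values here are RNA counts in nuclei.

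All 8 genes were detected. Of 25306 deposited nuclei, 14812 carried a cell class and were used. These were 6557 enteric neurons, 2892 Progenitor 1, 3800 Progenitor 2, 903 mesenchymal, 92 epithelial and 568 unknown nuclei, with a total of 23348045 to 34123759 unique molecular identifiers (UMIs, counted RNA molecules) per sample. A gene of the 8 had between 298 and 3235 UMIs per sample in the neurons, 129 to 1577 in Progenitor 1 and 223 to 1413 in Progenitor 2, but as few as 11 in the mesenchymal and 0 in the epithelial nuclei. The deposited sample column exchanged the replicate numbers of the 2 controls relative to their labels, whereas that of both PP121 tables matched. It also gave control replicate 2 the prefix stage2, where the other samples had stage1, and the meaning of this prefix is not given in the sources used here. The annotated days of the controls followed the labels, which were used. The exchange does not touch the PP121 comparison of the 2 groups as such, but would exchange the pairs wherever a PP121 sample is set against the control of its own differentiation. That comparison is given also with the control numbers exchanged. By the labels, mesenchymal nuclei numbered 40 (control) and 33 (PP121) in replicate 1 and 408 and 422 in replicate 2. Over all genes tested, deviations of same-numbered samples from their group means correlated at 0.305 to 0.613. Exchanging the control numbers moves this shared variation into the residual. Fewer calls in that fit therefore follow from the exchange itself, and no conclusion is drawn from them. Any pair of libraries shared 4 to 15 cell barcodes.

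The class names were set against their marker genes. The 11 neuron markers summed to 7822 to 10785 CPM (counts per 1000000 UMIs) in the neurons and to at most 2101 CPM in either progenitor class. The 7 progenitor markers summed to 1914 to 2434 CPM in Progenitor 2 but only to 649 to 934 CPM in Progenitor 1, a range that overlaps the mesenchymal nuclei (579 to 1164 CPM), so the name of Progenitor 1 rests less firmly on these markers. They summed to 1858 to 2361 CPM in the unknown nuclei, so they do not set Progenitor 2 apart from that class. The 13 mesenchymal markers were at 169 to 304 CPM in Progenitor 1, against 4873 to 5514 CPM in the mesenchymal class, and PRRX1 and TWIST1 were at 0 in Progenitor 1 of control replicate 1. In the epithelial class, KRT19 was at 0 in 3 of 4 samples. The 3 epithelial markers summed to 30.9 to 59.8 CPM there, within the range of the mesenchymal class (14.1 to 104 CPM). Progenitor 1 nuclei had fewer UMIs (sample medians 4854 to 5954) than Progenitor 2 (6242 to 6706) or the neurons (7210 to 8102), a higher ribosomal share (1.05% to 1.36%, against 0.835% to 0.980% and 0.684% to 0.865%) and more nuclei annotated in S or G2M phase (69.1% to 75.3%, against 49.3% to 57.2% and 35.3% to 48.8%).

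The results turn most on 4 genes, MTOR, RICTOR, PIK3CA and TSC1, whose levels were together highest in Progenitor 1. Their promoters are therefore shown, from 250 bases before to 50 bases after the RefSeq start of each gene (GRCh38.p14). These are chr1:11262502-11262801 (minus strand) for MTOR, chr5:39074350-39074649 (minus) for RICTOR, chr3:179148107-179148406 (plus) for PIK3CA and chr9:132944567-132944866 (minus) for TSC1. Capitals mark matches to a CCAAT box (CCAAT or ATTGG), an ETS motif (CCGGAAG or CTTCCGG) or a GC box (GGGCGG or CCGCCC), each searched on both strands. The promoters, 5′ to 3′, are:
MTOR: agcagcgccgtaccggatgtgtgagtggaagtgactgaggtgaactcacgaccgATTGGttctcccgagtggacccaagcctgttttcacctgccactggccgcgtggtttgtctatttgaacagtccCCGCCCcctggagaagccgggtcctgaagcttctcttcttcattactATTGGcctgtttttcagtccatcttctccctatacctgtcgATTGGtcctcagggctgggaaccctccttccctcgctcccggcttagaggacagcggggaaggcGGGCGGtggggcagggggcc
RICTOR: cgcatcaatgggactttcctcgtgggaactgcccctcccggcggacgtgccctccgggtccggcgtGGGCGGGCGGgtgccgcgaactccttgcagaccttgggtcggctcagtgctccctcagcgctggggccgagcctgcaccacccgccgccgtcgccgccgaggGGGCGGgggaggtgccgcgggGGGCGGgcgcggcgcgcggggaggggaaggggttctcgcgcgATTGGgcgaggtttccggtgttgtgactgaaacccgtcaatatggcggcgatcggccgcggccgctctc
PIK3CA: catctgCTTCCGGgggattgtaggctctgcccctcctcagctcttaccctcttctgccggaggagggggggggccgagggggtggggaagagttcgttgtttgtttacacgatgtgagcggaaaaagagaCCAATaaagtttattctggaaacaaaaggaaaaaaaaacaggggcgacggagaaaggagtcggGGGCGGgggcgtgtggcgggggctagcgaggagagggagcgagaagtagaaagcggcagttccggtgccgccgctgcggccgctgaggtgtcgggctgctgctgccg
TSC1: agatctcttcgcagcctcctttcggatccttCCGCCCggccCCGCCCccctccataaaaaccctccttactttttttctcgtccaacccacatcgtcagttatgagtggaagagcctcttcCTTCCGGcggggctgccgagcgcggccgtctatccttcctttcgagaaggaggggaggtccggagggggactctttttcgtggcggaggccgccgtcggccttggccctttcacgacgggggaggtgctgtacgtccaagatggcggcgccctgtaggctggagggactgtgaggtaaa
MTOR held 3 CCAAT boxes and 2 GC boxes, and RICTOR 1 CCAAT box and 4 GC boxes, the first 2 of which overlap each other. PIK3CA held 1 of each of the 3 motifs, and TSC1 held 1 ETS motif and 2 GC boxes. None of the 4 held the E-box CACGTG, which occurs in 7.26% of the 35116 RefSeq promoter windows. The CCAAT box occurs in 34.6%, the ETS motif in 10.3% and the GC box in 45.0% of those windows, and no motif was in all 4 promoters other than the GC box. A match of letters is a description and shows no binding. By the GENCODE release 29 annotation (GRCh38), the genes span chr1:11106535-11262507 (MTOR, minus strand), chr17:80544819-80966371 (RPTOR, plus), chr5:38937919-39074408 (RICTOR, minus), chr3:179148114-179240093 (PIK3CA, plus), chr3:138652699-138834938 (PIK3CB, minus), chr5:68215720-68301821 (PIK3R1, plus), chr9:132891348-132946874 (TSC1, minus) and chr16:2047465-2089487 (TSC2, plus). Exons make up from 2.44% (RPTOR) to 46.7% (TSC2) of these spans. The RefSeq start of TSC1 used above lies inside its GENCODE span. Every counted gene that overlaps one of the 8 lies on the opposite strand. The most abundant of these are PKD1, over the end of TSC2, at 42.0 to 45.8 CPM, and KCNMB3, over the end of PIK3CA, at no more than 18.8 CPM. MTOR-AS1 and ANGPTL7 inside MTOR were at no more than 7.62 CPM. Whether strand was used in counting is not given in the sources used here.

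Levels were first compared between cell classes, as CPM of the summed UMIs of each class in each sample. The classes were clustered on the same counts, so these differences are a description and were not tested. By their means over the 4 samples, MTOR, RICTOR, PIK3CA and TSC1 were highest in Progenitor 1, RPTOR was highest in Progenitor 2 and PIK3CB was lowest in the neurons. PIK3R1 and TSC2 varied least clearly among the 3 large classes. CPM values are compared only within a gene, because the counts are not scaled to gene length.

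MTOR, the kinase itself, was at 226 and 169 CPM in Progenitor 1 of control replicates 1 and 2 and at 213 and 91.0 CPM in PP121 replicates 1 and 2. The corresponding values were 116, 103, 94.0 and 72.5 CPM in the neurons and 105, 94.4, 94.4 and 74.0 CPM in Progenitor 2. MTOR was thus higher in Progenitor 1 than in the other large classes within every sample, but its value in Progenitor 1 of PP121 replicate 2 lay below those of 3 of the 4 samples in the neurons. Over the 4 samples the order was Progenitor 1 (175 ± 60.9 CPM, mean ± SD, n = 4, as for all class means below), neurons (96.4 ± 18.4), Progenitor 2 (91.9 ± 12.9), unknown (87.0 ± 16.1), mesenchymal (63.9 ± 17.8) and epithelial nuclei (29.4 ± 26.6), and every pair of neighbours in that order overlapped. No MTOR UMI was found among the 64626 UMIs of the 9 epithelial nuclei of PP121 replicate 1, which allows up to 46.4 CPM.

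RICTOR, the defining subunit of mTOR complex 2, reached the highest CPM of Progenitor 1 in replicate 2 of both groups. It was at 209 and 352 CPM in the controls and at 225 and 323 CPM in the PP121 samples there. The neurons had 171, 216, 162 and 191 CPM, and Progenitor 2 had 133, 167, 141 and 146 CPM, in the same sample order. Progenitor 1 (277 ± 70.8 CPM) was followed by mesenchymal nuclei (228 ± 43.2 CPM) and neurons (185 ± 23.9 CPM), and then by epithelial, Progenitor 2 and unknown nuclei (means 146 to 153 CPM). Neighbours again overlapped, although Progenitor 1 and Progenitor 2 did not.

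PIK3CA, the p110α catalytic subunit, and TSC1, which stabilises TSC2, were the only members of the 8 with all 4 Progenitor 1 values above every value of the other 5 classes in any sample. MTOR and RICTOR were likewise highest in Progenitor 1 of the 6 classes within each sample, but their ranges over samples overlapped those of other classes. PIK3CA was at 186 and 217 CPM (control) and 176 and 175 CPM (PP121) in Progenitor 1, against 117, 127, 106 and 108 CPM in the neurons and 101, 97.3, 90.6 and 102 CPM in Progenitor 2. Its class means were 189 ± 19.8, 114 ± 9.48 and 97.7 ± 5.13 CPM. TSC1 was at 133 and 129 CPM (control) and 111 and 92.0 CPM (PP121) in Progenitor 1, at 76.7, 75.8, 61.3 and 56.9 CPM in the neurons and at 60.6, 58.1, 60.4 and 44.9 CPM in Progenitor 2. Its means were 116 ± 18.7, 67.7 ± 10.1 and 56.0 ± 7.48 CPM, and below Progenitor 1 the neighbouring classes overlapped for both genes.

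RPTOR, the defining subunit of mTOR complex 1, followed another order. It was at 158, 168, 157 and 166 CPM in Progenitor 2, at 157, 147, 133 and 135 CPM in Progenitor 1 and at 120, 130, 121 and 122 CPM in the neurons. Both progenitor classes (162 ± 5.37 and 143 ± 11.2 CPM) lay above all neuron values (123 ± 4.67 CPM), and Progenitor 2 lay just above Progenitor 1 without overlap. The few epithelial nuclei had the second highest mean (150 ± 21.5 CPM), and their range (124 to 171 CPM) overlapped both progenitor classes. Neurons, unknown and mesenchymal nuclei had the same level within their spread (means 123 CPM). The 2 defining subunits of the mTOR complexes thus differed in order, with RICTOR higher and RPTOR lower in neurons than in Progenitor 2 in 4 of 4 samples.

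PIK3CB, the p110β catalytic subunit, had nearly the same mean in both progenitor classes (87.2 ± 7.06 CPM in Progenitor 1 and 87.0 ± 2.85 CPM in Progenitor 2) and lower in the neurons, at 66.7, 64.4, 60.5 and 56.8 CPM. Its lowest progenitor value was 76.8 CPM, in Progenitor 1 of PP121 replicate 2. The epithelial (105 ± 45.8 CPM) and unknown nuclei (93.8 ± 9.14 CPM) had higher PIK3CB means than both progenitor classes. In the mesenchymal nuclei PIK3CB ranged from 50.5 to 124 CPM, which spans the neuron values. PIK3R1, the p85α regulatory subunit, was at 54.7, 70.3, 60.2 and 64.7 CPM in Progenitor 2, at 49.3, 50.2, 51.9 and 62.8 CPM in the neurons and at 35.4, 51.7, 39.3 and 67.3 CPM in Progenitor 1. Its highest mean was in the mesenchymal nuclei (99.8 ± 45.8 CPM), whose numbers per sample ran from 33 to 422, and all neighbouring classes overlapped. TSC2, the catalytic partner of TSC1, was nearly level over the large classes, at 42.7 ± 1.29 CPM in Progenitor 1, 38.7 ± 2.85 CPM in Progenitor 2 and 37.7 ± 2.54 CPM in the neurons.

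**Figure D1:**
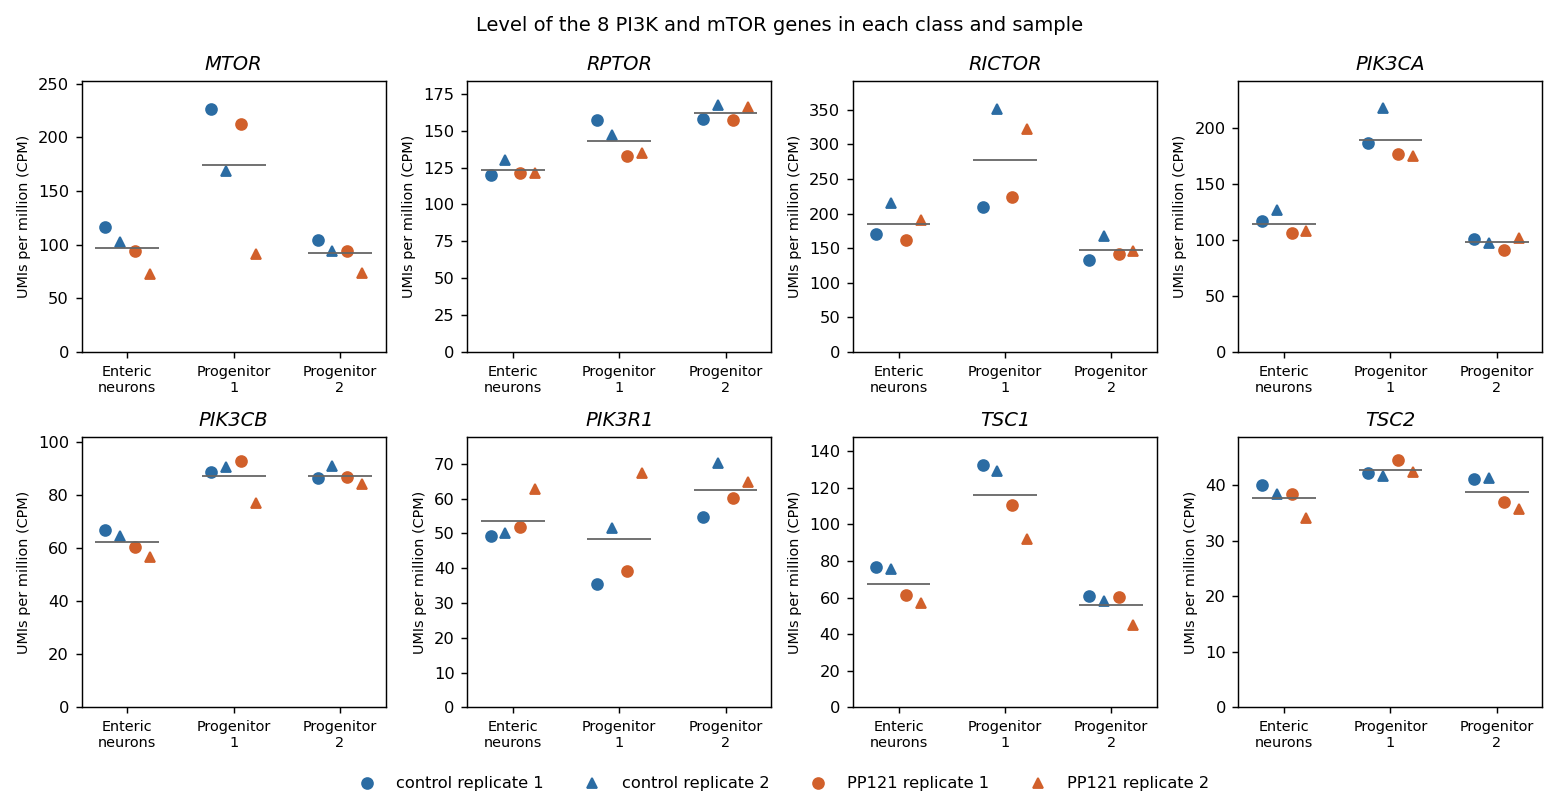
Level of each gene in CPM (linear axis from 0) in enteric neurons, Progenitor 1 and Progenitor 2, with 1 point per sample (blue control, orange PP121, circles replicate 1, triangles replicate 2) and a line at the mean of the 4 samples. PIK3CA and TSC1 stand highest in Progenitor 1 in every sample, and MTOR in Progenitor 1 ranges from 91.0 CPM in PP121 replicate 2 to 226 CPM in control replicate 1.

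Within each sample, the log2 ratio of Progenitor 2 to Progenitor 1 was −1.05 ± 0.13 (mean ± SD, n = 4) for TSC1, −0.95 ± 0.16 for PIK3CA, −0.88 ± 0.26 for RICTOR and −0.85 ± 0.40 for MTOR. With TSC2 (−0.14), 5 of the 8 genes were lower in Progenitor 2 in 4 of 4 samples, whereas 35% of the 13731 genes compared were lower in 4 of 4. RPTOR was higher in 4 of 4 samples (0.18), as were 31.7% of the genes compared. PIK3CB had a mean ratio of 0.00 and PIK3R1 one of 0.41, with 3 of 4 samples higher. The median over all genes was −0.04.

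**Figure D2:**
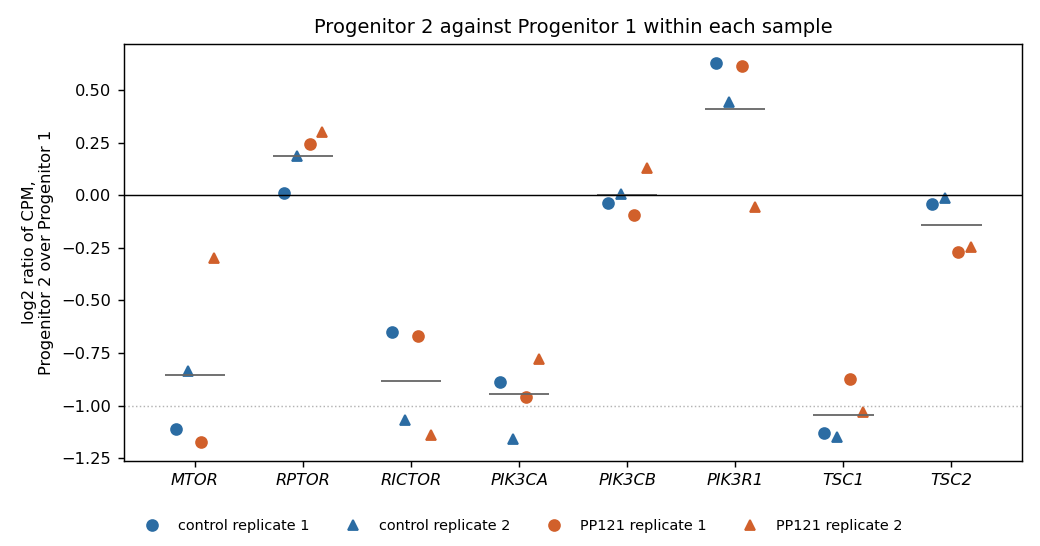
Log2 ratio of Progenitor 2 to Progenitor 1 for each gene, with 1 point per sample in the colours and shapes of the 4 samples. MTOR, RICTOR, PIK3CA, TSC1 and TSC2 lie below 0 in all 4 samples and RPTOR lies above 0 in all 4.

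Because Progenitor 1 held more nuclei annotated in S and G2M phase, the ratio was also taken within each annotated phase, an alternative chosen after the data were seen. MTOR was lower in Progenitor 2 by a mean log2 ratio of −0.76 in G1, −1.01 in S and −0.70 in G2M. The ratios of RICTOR were −0.83, −0.86 and −1.10, those of PIK3CA −0.85, −0.87 and −1.06, and those of TSC1 −0.83, −1.01 and −1.41. All 4 genes were lower in 4 of 4 samples in each of the 3 phases. With each nucleus reduced at random to 2000 UMIs, the mean share of nuclei with a UMI was also higher in Progenitor 1 than in Progenitor 2. It was 25.6% against 15.2% for MTOR and 39.0% against 23.6% for RICTOR. For PIK3CA it was 26.7% against 16.7%, and for TSC1 19.0% against 10.2%. Beyond this, whether the lower depth and higher ribosomal share of Progenitor 1 play a part was not tested.

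Neurons differed from Progenitor 1 in the same direction for 7 of the 8 genes. MTOR (log2 ratio −0.79), TSC1 (−0.78), PIK3CA (−0.72), RICTOR (−0.56), PIK3CB (−0.49), RPTOR (−0.21) and TSC2 (−0.18) were lower in neurons in 4 of 4 samples, as were 39.2% of the 13760 genes compared, and PIK3R1 was divided 2 to 2. Against Progenitor 2, the neurons were lower in 4 of 4 samples for PIK3CB (−0.49), RPTOR (−0.40) and PIK3R1 (−0.22), against a background of 33.7% of 16526 genes, and higher in 4 of 4 samples for RICTOR (0.33), TSC1 (0.27) and PIK3CA (0.23), against a background of 25.9%. MTOR and TSC2 were not of one sign there. The catalytic subunits p110α and p110β thus stood in opposite order between neurons and Progenitor 2.

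Nuclei with a UMI of a gene were counted after thinning each nucleus to 2000 UMIs, so that depth did not differ between classes. At this depth MTOR was found in 32.0%, 24.7%, 29.2% and 16.7% of Progenitor 1 nuclei (controls 1 and 2, then PP121 1 and 2), and in 19.5%, 19.2%, 16.9% and 12.8% of neurons. For PP121 replicate 2 in Progenitor 1 the exact (Clopper-Pearson) 95% interval was 13.5% to 20.2%, and for the other 3 samples the intervals ran from 21.3% to 35.9%, covering counting error only. RICTOR was found in 32.0%, 45.9%, 31.9% and 46.2% of Progenitor 1 nuclei. TSC1 was found in 21.6%, 19.4%, 17.9% and 17.1% of them, against 11.0%, 8.71%, 11.7% and 9.52% of Progenitor 2 nuclei. By share of nuclei as by CPM, MTOR was thus higher in Progenitor 1 than in neurons and TSC1 higher in Progenitor 1 than in Progenitor 2 in every sample. Without thinning, MTOR was found in a mean of 50.6% of Progenitor 1 nuclei, 47.0% of neurons and 41.1% of Progenitor 2 nuclei. Thinning left out 21 neurons, 35 Progenitor 1 and 24 Progenitor 2 nuclei. The 8 genes are expressed in most cell types, so no class gives a share that stands for free RNA alone.

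Within the neurons, those annotated as nitrergic (NO neurons, which release nitric oxide) were compared with the remaining neurons. RICTOR was lower in NO neurons in 4 of 4 samples by a mean log2 ratio of −0.14 ± 0.20 (SD), which is smaller than its spread and was largest in PP121 replicate 2 (−0.43). Of 10200 genes compared, 24.3% were lower in 4 of 4 samples. The other 7 genes were of mixed sign, with means from −0.03 (PIK3R1) to 0.14 (PIK3CB). PIK3CB was higher in NO neurons in 3 of 4 samples (0.14 ± 0.12). These ratios were not tested.

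The effect of PP121 was then tested in the summed counts of each class with edgeR's quasi-likelihood test, with Benjamini-Hochberg adjustment over all genes tested. Without a term for the differentiation no gene was called at an adjusted p under 0.05, none of the 8 included, in neurons (0% of 21243 genes), Progenitor 1 (0% of 16083), Progenitor 2 (0% of 18885) or all annotated nuclei (0% of 24123), although 2549, 621, 1774 and 1113 genes had an unadjusted p under 0.05. DESeq2 called 87 genes in neurons, 1 in Progenitor 1 and 96 in Progenitor 2. With the differentiation replicate as a block, which compares PP121 with the control of the same differentiation, 14.8% of the genes were called in neurons, 3.69% in Progenitor 1, 6.71% in Progenitor 2 and 0.883% in all nuclei. With the control numbers exchanged, the block called 1, 3 and 0 genes in neurons, Progenitor 1 and Progenitor 2, and none of the 8. Each group had 2 samples, and a p-value measures only the spread between these.

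In the neurons MTOR was lower in both PP121 samples (94.0 and 72.5 CPM) than in either control (116 and 103 CPM). Its log2 fold change was −0.36 ± 0.15 (SE), with an adjusted p of 0.411 without the block (edgeR, unadjusted 0.0470) and of 0.0143 with it (−0.36 ± 0.10). TSC1 was lower as well, at 61.3 and 56.9 CPM against 76.7 and 75.8 CPM. The log2 fold change of TSC1 was −0.33 ± 0.12, with an adjusted p of 0.392 without the block (edgeR, unadjusted 0.0294) and of 0.0350 with it. Within replicate 1 and replicate 2 the log2 ratio of PP121 to control was −0.31 and −0.50 for MTOR and −0.32 and −0.41 for TSC1. Leaving out each library in turn gave −0.53 to −0.21 for MTOR and −0.35 to −0.30 for TSC1. Among the fits with all 4 samples and all neurons, MTOR and TSC1 were called lower only when each PP121 sample was set against the control of its own differentiation by its label, 2 of the 8 genes against a background of 6.86% called lower. With the control numbers exchanged the adjusted p was 0.803 for MTOR and 0.812 for TSC1 (edgeR).

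The share of neurons annotated in S or G2M phase also differed between the groups, at 46.8% and 48.8% in the controls and 35.3% and 37.5% after PP121. The study predicted phases from scores of cell-cycle genes, so an S or G2M label does not show that a neuron was dividing. Taking the controls first and then the PP121 samples, each as replicate 1 and replicate 2, MTOR was at 99.1, 87.1, 88.0 and 70.3 CPM in G1, at 133, 119, 99.3 and 84.3 CPM in S and at 151, 125, 126 and 64.1 CPM in G2M. The groups thus overlapped for MTOR in G1 and G2M but not in S. TSC1 was at 67.7, 64.3, 57.9 and 51.8 CPM in G1, at 84.5, 87.1, 61.2 and 66.8 CPM in S and at 97.9, 95.4, 88.5 and 65.8 CPM in G2M, without overlap in any phase. Within G1 neurons alone, an alternative chosen after the data were seen, the log2 fold change with the block was −0.19 ± 0.10 for MTOR (adjusted p 0.332, edgeR) and −0.22 ± 0.10 for TSC1 (adjusted p 0.290). Neither gene was called there, with or without the block, from 610 to 1314 neurons per sample.

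The remaining 6 genes passed in neither fit in the neurons. PIK3R1 had a log2 fold change of 0.24 ± 0.15 (adjusted p 0.554 without and 0.178 with the block, edgeR), and both PP121 samples lay above both controls. PIK3CA (−0.15 ± 0.13) and PIK3CB (−0.12 ± 0.12) had both PP121 samples below both controls. RICTOR, TSC2 and RPTOR had fold changes of −0.09, −0.07 and −0.01 and overlapped between the groups. In all, 4 of the 8 genes lay lower without overlap, where 25.4% of all genes tested did, and 1 lay higher without overlap, where 19.7% did.

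In Progenitor 1 none of the 8 genes was called in either fit. MTOR had a log2 fold change of −0.41 ± 0.35 (adjusted p 1.00, edgeR) and, with the block, of −0.49 ± 0.16 (adjusted p 0.0710). One library decided it, since the 3 other samples lay at 169 to 226 CPM and PP121 replicate 2 at 91.0 CPM, and without that library the fold change was 0.01. The low value of PP121 replicate 2 was present in each annotated phase, at 81.0 CPM in G1, 108 CPM in S and 83.2 CPM in G2M, where the other samples had 148 to 239 CPM. TSC1 (−0.40 ± 0.23, adjusted p with the block 0.267), PIK3CA (−0.23 ± 0.25) and RPTOR (−0.20 ± 0.23) had both PP121 samples below both controls, 3 genes where 11.2% of all genes tested were lower without overlap. TSC2 (0.03 ± 0.24) had both above, where 16.8% of all genes did. PIK3R1, RICTOR and PIK3CB were at 0.26, −0.07 and −0.11 and overlapped.

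In Progenitor 2 the fold changes were the smallest of the 3 classes in range, from −0.21 (MTOR) to 0.03 (PIK3R1), and none was called with or without the block (lowest adjusted p 0.404 and 0.716, both for MTOR, edgeR). MTOR (105 and 94.4 against 94.4 and 74.0 CPM) and TSC2 (41.1 and 41.3 against 37.0 and 35.7 CPM) had both PP121 samples below both controls, where 21.8% of all genes tested did. Over all annotated nuclei MTOR was at 123 and 109 CPM in the controls and at 118 and 72.3 CPM in the PP121 samples, and none of the 8 was called in either fit (lowest adjusted p 0.383, for MTOR with the block). In these sums a change within a class and a change in the share of classes cannot be told apart.

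**Figure D3:**
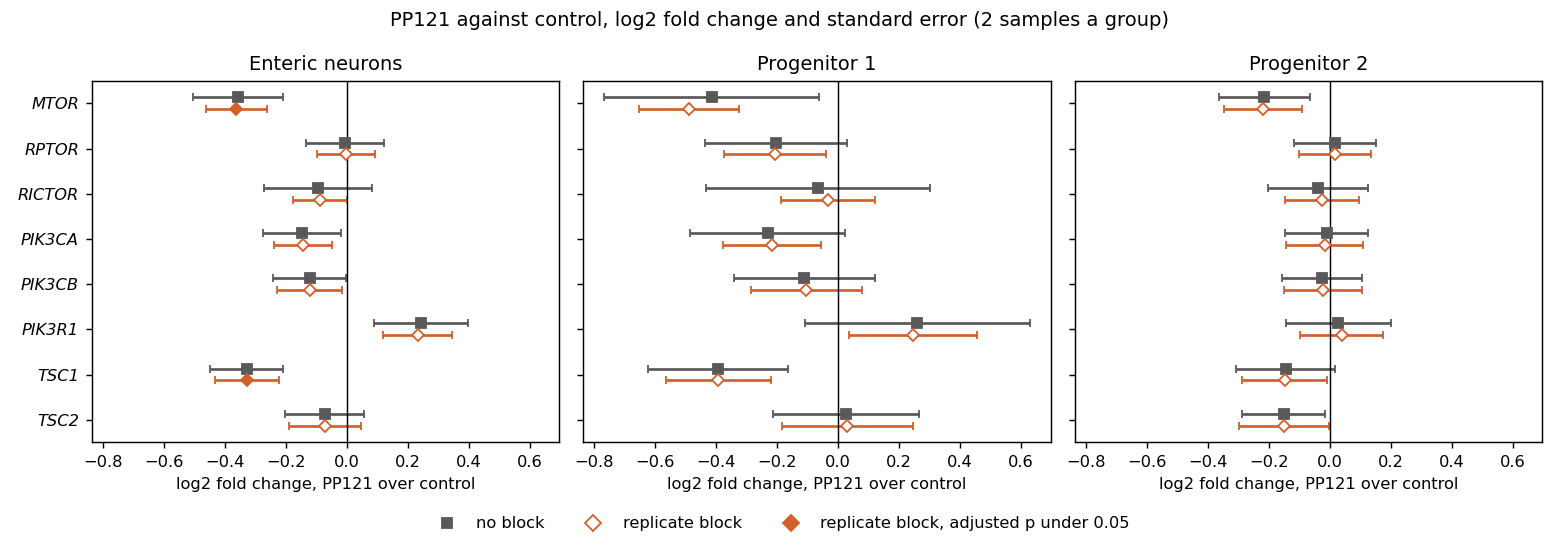
Log2 fold change of PP121 over control for the 8 genes in enteric neurons, Progenitor 1 and Progenitor 2, without (grey squares) and with (orange diamonds) the replicate block, with bars of 1 SE (edgeR, 2 samples a group). Filled diamonds mark an adjusted p under 0.05, which MTOR (−0.36) and TSC1 (−0.33) reached in neurons with the block.

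Whether the PP121 effect differed between neurons and progenitors (both classes summed) was tested as an interaction. No gene of 21787 was called (0%; 2123 had an unadjusted p under 0.05, and DESeq2 called 52), and for the 8 genes the lowest adjusted p was 0.775 (edgeR, PIK3R1, 0.19 ± 0.17). The difference between the effects was −0.08 ± 0.17 for MTOR and −0.07 ± 0.16 for TSC1 on the log2 scale. In the progenitor sums a change within a class and a change in the share of either class cannot be told apart. In replicate 1 the log2 ratio of PP121 to control for MTOR was 0.08 in the summed progenitors, −0.09 in Progenitor 1 and −0.15 in Progenitor 2. For TSC1 these ratios were 0.02, −0.26 and −0.005. In replicate 2 they were −0.66, −0.89 and −0.35 for MTOR and −0.56, −0.49 and −0.37 for TSC1. The lower MTOR and TSC1 of the neurons were therefore not shown to differ from the change in the summed progenitors.

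The remaining genes of the pathway were taken as 9 lists of 119 genes in all, of which 113 were tested in neurons. The lists, too, were chosen with earlier results of these data known. The shares over all genes are therefore no independent background for them, and no excess over these shares is read as a result. None was called without the block in any class with all 4 samples. With the block 8 of the 113 were called higher and 19 lower in neurons (23.9%), where 7.97% and 6.86% of all genes were called. In Progenitor 1, 2 of 107 were called higher and 1 lower (2.9% and 0.783% of all genes), and in Progenitor 2, 4 of 109 higher and 3 lower (4.38% and 2.32% of all genes). The calls given in the following 4 paragraphs all rest on the fit with the block. None of the lists' genes was called with the control numbers exchanged, in neurons, Progenitor 1 or Progenitor 2. In G1 neurons with the block, 6 of the 27 were called, namely INPP4B, IGF1R and GAB2 higher and INPP5D, CAD and IDI1 lower.

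Among other PI3K subunits, 1 of 8 tested was called higher and 3 lower in neurons. The regulatory subunit PIK3R3 was at 342 and 384 CPM in the controls and at 387 and 589 CPM in the PP121 samples (log2 fold change 0.44). Control replicate 2 and PP121 replicate 1 were nearly level for PIK3R3, so its call rests on the comparison within each differentiation. PIK3C2A (−0.30), a class II kinase, and PIK3C3 (−0.27) and PIK3R4 (−0.37), the catalytic and regulatory subunits of the class III kinase, were lower. Of 8 phosphatases that remove PI3K products, INPP4B was called higher (0.52) and INPP5D lower (−1.48, from 4.22 and 3.61 CPM to 1.72 and 0.914 CPM) in neurons. INPP5D, the inositol phosphatase SHIP1, was also called lower in Progenitor 1 (−1.25, 25.0 and 14.8 against 10.7 and 6.24 CPM) and Progenitor 2 (−1.16). INPP4A was called lower in Progenitor 2 (−0.37). None of 9 kinases of the AKT axis was called in any of these classes.

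Of the other mTOR complex subunits, 1 of 8 was called. This was PRR5L, a RICTOR-binding protein, which was at 10.1 and 9.02 CPM in control neurons and at 13.4 and 14.4 CPM in PP121 neurons (0.56). In the TSC-RHEB and energy-sensing list, RHEB, the GTPase that TSC1 and TSC2 restrain, was called lower in neurons (−0.37, 103 and 114 against 81.0 and 81.1 CPM). Of the AMP-activated kinase subunits in that list, PRKAB2 was called lower (−0.56) and PRKAA2 higher (0.51). DDIT4, an inhibitor of mTOR complex 1 also known as REDD1, was called higher in Progenitor 1 (0.85), from 55.6 and 38.6 CPM to 83.7 and 87.7 CPM. Of 28 genes of amino acid sensing, RRAGC (−0.52), RRAGD (−0.45) and LAMTOR3 (−0.56), parts of the lysosomal machinery that recruits mTOR complex 1, were called lower and FNIP2 (0.31) higher in neurons.

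Receptors and adaptors had a positive median in neurons (0.26 over 9 genes tested, against −0.01 over all genes), with 3 called higher and 1 lower. IGF1R, the receptor of insulin-like growth factors, was at 304 and 406 CPM in controls and at 406 and 542 CPM after PP121 in neurons (0.46), and at 311 and 372 against 402 and 469 CPM in Progenitor 2 (0.38). The adaptors GAB1 (0.33) and GAB2 (0.40) were called higher in neurons, and IRS1, the main substrate of the insulin receptor, was called higher in Progenitor 2 (0.67). GRB14, an adaptor that inhibits insulin receptor signalling, was called lower in neurons (−0.94 ± 0.18, adjusted p 0.000752, edgeR), from 16.1 and 11.9 CPM to 8.14 and 6.05 CPM. Control replicate 2 and PP121 replicate 1 were nearly level for IGF1R and GAB2 in neurons, so those calls rest on the comparison within each differentiation.

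Among 21 downstream effectors, TFEB (−0.73), a transcription factor of lysosomal genes, CAD (−0.63), an enzyme of pyrimidine synthesis, and ATG13 (−0.37), an autophagy factor, were called lower in neurons and none higher. RPS6, the ribosomal protein that S6 kinase phosphorylates, was called higher in Progenitor 1 (0.53, 120 and 134 against 187 and 185 CPM) and Progenitor 2 (0.78, 121 and 134 against 214 and 214 CPM). The median share of ribosomal UMIs per nucleus was also higher after PP121 within each differentiation. It was at 1.36% and 1.16% against 1.22% and 1.05% in Progenitor 1. In Progenitor 2 it was at 0.980% and 0.971% against 0.945% and 0.835%. The study lists removal of clusters with a high ribosomal share for all cells of its control set. It lists none for all cells of the merged control and PP121 set. The parts of the ribosomal share and of this removal in the RPS6 values were not tested. FOXO1, a transcription factor that AKT restrains, was called higher in Progenitor 2 (0.78, 36.9 and 45.7 against 70.3 and 67.0 CPM) and over all nuclei, and TFEB was called lower in Progenitor 2 (−0.99). The list with the most calls in neurons held 11 sterol and lipid synthesis genes of the SREBP transcription factors, which mTOR complex 1 is known to promote, with 6 called lower and none higher (median −0.51). SQLE, an enzyme of cholesterol synthesis that oxidises squalene, was at 184 and 177 CPM in controls and at 84.1 and 126 CPM after PP121 (−0.77 ± 0.11, adjusted p 2.2e-05, edgeR). HMGCS1 (−0.77), INSIG1 (−0.74), IDI1 (−0.53) and FASN (−0.51) were lower too. None of the 11 was called in Progenitor 1 or Progenitor 2, and a difference between the classes was called for none of them in the interaction test.

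**Figure D4:**
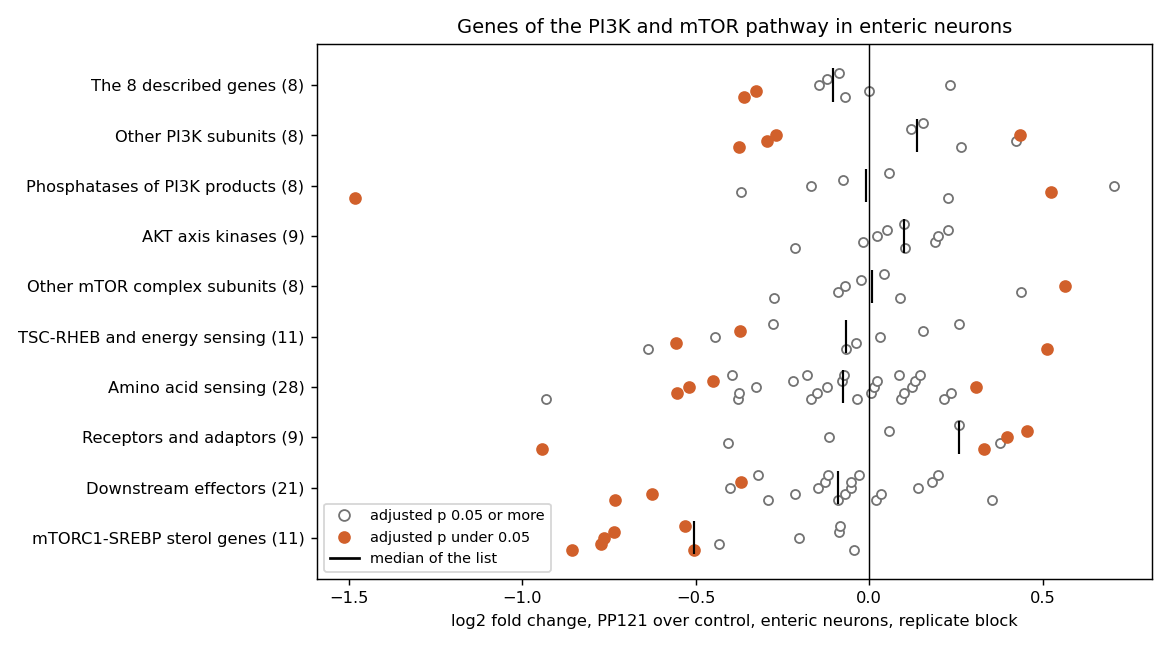
Log2 fold change of PP121 over control in enteric neurons with the replicate block for the 8 genes and the 9 lists of other pathway genes (number tested in brackets), with 1 point per gene, filled where the adjusted p was under 0.05, and a bar at each list's median. The sterol genes have the lowest median (−0.51) and the receptors and adaptors the highest (0.26).

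The levels also differed between the differentiations. Replicate 1 was set against replicate 2, first over all 4 samples and then with treatment as a further term. Without that term none of the 8 was called in neurons, Progenitor 1 or Progenitor 2 (0% of genes called, although 1574, 3106 and 1219 had an unadjusted p under 0.05), or in all nuclei (0.721% called). With treatment as a term, 9.49% of genes were called in neurons, 14.6% in Progenitor 1, 4.81% in Progenitor 2 and 5.52% in all nuclei, and 1, 3, 0 and 0 of the 8 genes were. The 1 gene in neurons was lower in replicate 1, where 5.81% of genes were called lower and 3.68% higher. Of the 3 in Progenitor 1, 2 were lower and 1 higher, where 8.95% and 5.66% were.

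In Progenitor 1 RICTOR was lower in replicate 1 (209 and 225 CPM in control and PP121) than in replicate 2 (352 and 323 CPM). Its log2 fold change with treatment as a term was −0.79 ± 0.15 (adjusted p 1.7e-05, edgeR), and without that term the adjusted p was 0.0917. PIK3R1 was lower in replicate 1 as well, at 35.4 and 39.3 CPM against 51.7 and 67.3 CPM, with −0.82 ± 0.21 (adjusted p 0.00172 with the term and 0.118 without). MTOR was higher in replicate 1, at 226 and 213 CPM against 169 and 91.0 CPM, with 0.66 ± 0.17 (adjusted p 0.00151 with the term and 0.273 without). Leaving out each library in turn gave −0.88 to −0.72 for RICTOR, −0.996 to −0.64 for PIK3R1 and 0.20 to 1.12 for MTOR. MTOR and RICTOR, which form one complex, thus stood in opposite order between the differentiations within the same class. The mesenchymal markers in Progenitor 1 were also lower in replicate 1 (169 and 190 CPM) than in replicate 2 (223 and 304 CPM), and their part in these values was not tested.

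In the neurons RICTOR was again lower in replicate 1, at 171 and 162 CPM against 216 and 191 CPM (−0.35 ± 0.09, adjusted p 0.0120 with treatment as a term and 0.665 without, edgeR). In Progenitor 2 RICTOR was at 133 and 141 CPM in replicate 1 and at 167 and 146 CPM in replicate 2, which did not pass (adjusted p 0.320 with the term). PIK3R1 in Progenitor 2 was lower in replicate 1 in both groups too (54.7 and 60.2 against 70.3 and 64.7 CPM, adjusted p 0.290). In Progenitor 1 the difference of RICTOR and PIK3R1 between differentiations was larger than any PP121 fold change of the 8 genes in the 3 classes. Of the 11 sterol genes, 5 were called lower in replicate 1 in neurons, 8 in Progenitor 1 and 10 in Progenitor 2 with treatment as a term. Of all genes tested, 5.81% were called lower in neurons, 8.95% in Progenitor 1 and 481 of 18885 in Progenitor 2. Calls in this list were thus made between the differentiations as well as between PP121 and control.

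**Figure D5:**
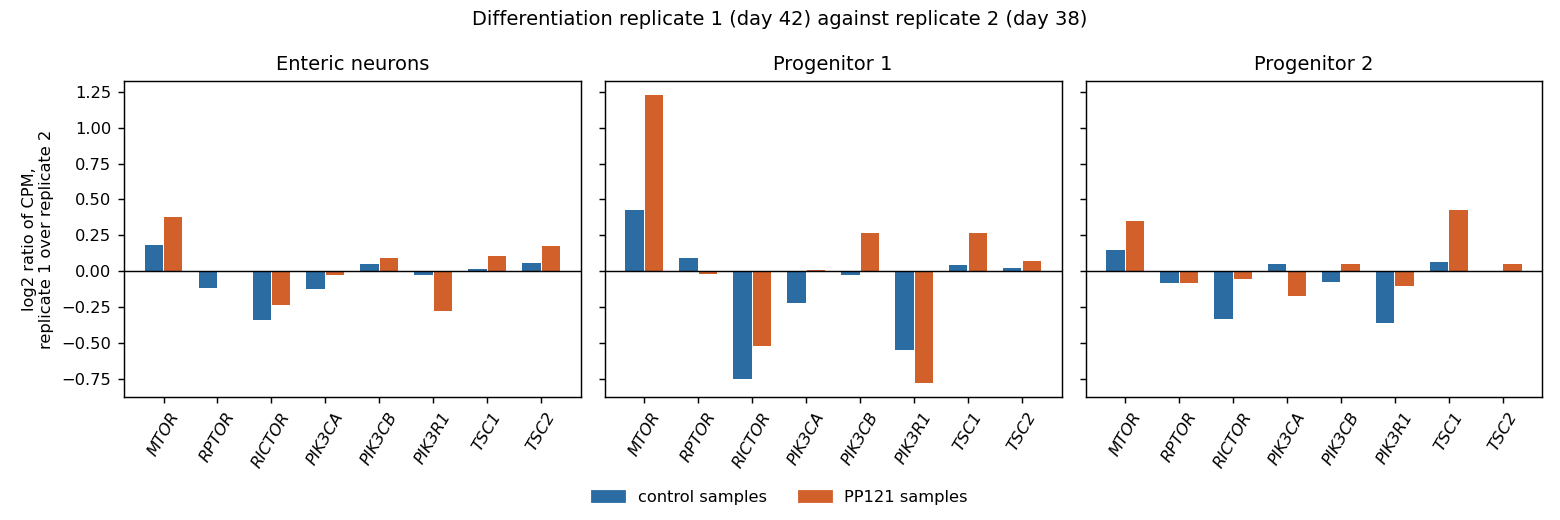
Log2 ratio of replicate 1 to replicate 2 for each gene in enteric neurons, Progenitor 1 and Progenitor 2, with 1 bar for the control samples and 1 for the PP121 samples. RICTOR lies below 0 in both groups in all 3 classes, and in Progenitor 1 MTOR lies above 0 in both.

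The genes whose levels most resembled those of the 8 were sought among 11544 genes, as the Pearson correlation of log2(CPM + 1) over 16 sums, those of neurons, Progenitor 1, Progenitor 2 and unknown nuclei in 4 samples. The sums share libraries, and the correlations are a description. MTOR was most like VPS53 (r = 0.97) and SLC25A16 (0.97), RPTOR like ATXN10 (0.94) and LRIG1 (0.93), and RICTOR like ROCK1 (0.98) and PUM2 (0.97). PIK3CA was most like STAM (0.97) and COPS2 (0.97), PIK3CB like OSBPL3 (0.95) and AL022323.4 (0.94), and PIK3R1 like TCF4-AS1 (0.91) and TCF4 (0.90). TSC1 was most like SLC45A4 (0.98) and RANBP2 (0.98), and TSC2 like AL359706.1 (0.94) and UTP14A (0.92). Among the 8 genes the closest pairs were PIK3CA with TSC1 (0.90), MTOR with TSC1 (0.89) and RICTOR with PIK3CA (0.84), and the most opposed pair was MTOR with PIK3R1 (−0.69).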

How the data were processed

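Per the labels and the study's methods, nuclei of hashtagged, pooled samples were run on a droplet 3′ kit. The methods name kallisto and bustools for alignment and counting, whereas the submitters' processing notes name Cell Ranger, GRCh38 and Seurat 4.0.4. The annotation release, intron counting and use of strand are not given in the sources used here. The authors deposited raw UMI counts per gene and nucleus, with a cell class, phase and day per nucleus. They also deposited a mitochondrial and a ribosomal percent per nucleus. The annotated nuclei lie within 1250 to 7000 genes, at most 40000 UMIs and under 10% mitochondrial reads, and nuclei that the authors marked as filtered were left out. This was uneven between the groups. In control replicates 1 and 2, 4655 and 3226 nuclei lay inside these limits, and 4283 and 3030 were used. In PP121 replicates 1 and 2, 4587 and 2911 lay inside them, and 4587 and 2912 were used. No doublet caller was run here.

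UMIs were summed per class and sample and divided by the summed total of that class and sample (counts per 1000000 UMIs, CPM). Sums were tested with edgeR 4.0.16 (quasi-likelihood, TMM scaling, filterByExpr, Benjamini-Hochberg adjustment over all genes tested) in R 4.3.3. The replicate block was an added term for the differentiation replicate, which the labels number from 1 to 2 in both groups and which goes with the annotated day. Deviations of same-numbered samples from their group means correlated at 0.478 in neurons, 0.454 in Progenitor 1, 0.305 in Progenitor 2 and 0.613 in all nuclei. The interaction test compared the PP121 effect in neurons with that in both progenitor classes. Alternatives were the block, DESeq2 1.42.0, no filter on low counts, sampling equal numbers of nuclei, leaving out the top 5% of nuclei by UMIs, and leaving out each sample. Exchanging the control numbers in the block, and fitting G1 neurons alone, were added after the data were seen. edgeR was tested on simulated counts. Promoters come from RefSeq (GRCh38.p14, 13 windows for all 8 genes) and spans from GENCODE release 29.

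The 8 genes and the pathway lists were chosen with earlier results of these data known. Of the lists, the text names, per PP121 test with the block, up to 8 called genes with the largest fold change whose mean reached 5 CPM and whose groups did not overlap. One gene that this rule names is not reported here. The other called genes it names in the lists (PIK3R3, PIK3C2A, PIK3C3, PIK3R4, INPP4B, INPP5D in neurons, RHEB, PRKAB2, PRKAA2, RRAGC, RRAGD, LAMTOR3, FNIP2, GAB1, GAB2, IGF1R in neurons, ATG13, IDI1, FASN and FOXO1 over all nuclei) were named after their values were seen.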

Additional observations from a re-analysis of the deposited data

Results flagged for a closer look

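Among enteric neurons, Progenitor 1 and Progenitor 2, TSC2 was the one gene of the 8 whose PP121 samples both lay above the control of their own differentiation in one class and both below it in another. In Progenitor 1 its log2 ratio of PP121 to the control of the same differentiation was 0.079 in replicate 1 and 0.025 in replicate 2. In Progenitor 2 the ratios were −0.15 and −0.21, and in enteric neurons −0.058 and −0.17. The ratios in Progenitor 1 are within 1 SE (0.24) of 0, TSC2 was called in none of these classes, and the difference between the 2 progenitor classes was not tested. With 2 samples a group, no sample could be tested as lying apart from its group.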

How the results depend on the processing

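With 2 samples a group, the number of calls depended strongly on the model. In the PP121 comparison of neurons, Progenitor 1, Progenitor 2 and all nuclei, where edgeR without a block called 0 genes, the replicate block gave 3152, 593, 1267 and 213 calls, DESeq2 87, 1, 96 and 49, and no filter on low counts 69, 81, 768 and 1. Leaving out each library in turn gave 0 to 1402, 6 to 349, 0 to 1052 and 0 to 8. Between replicates 1 and 2 the main counts were 0, 0, 0 and 174, against 2015, 2350, 908 and 1332 with treatment as a further term, 59, 436, 60 and 688 by DESeq2, and 158, 1261 and 415 (3 classes) without the filter. Leaving out each library there gave 2 to 271, 0 to 999, 0 to 48 and 143 to 1299. The interaction gave 52 calls by DESeq2, 514 without the filter and 0 to 120 with a library left out. Of the 8 genes, 2 were called for PP121 in neurons with the block. Between replicates, the block called 1 in neurons and 3 in Progenitor 1, where DESeq2 called 1, no filter 3, and leaving out a library 0 to 3, and 0 to 1 in all nuclei. The block changed no other call of the 8 genes. With the control numbers exchanged, the block gave 1, 3 and 0 calls in neurons, Progenitor 1 and Progenitor 2, and in G1 neurons 791 with the block and 0 without, none of them among the 8 genes. The cause of these differences was not tested.

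Small fold changes changed sign. RPTOR in neurons was 0.0031 by DESeq2 and 0.016 with equal numbers of nuclei. In G1 neurons without and with the block it was 0.028 and 0.036, and RICTOR 0.024 and 0.018. With equal numbers, TSC2 in Progenitor 1 was −0.011, and RICTOR and PIK3CB in Progenitor 2 were 0.0080 and 0.031. PIK3CA in Progenitor 2 was 0.018 without the top 5% of nuclei. With a library left out, the PP121 fold changes ranged as follows. In neurons RPTOR ranged from −0.092 to 0.092 and RICTOR from −0.28 to 0.13. In Progenitor 1 MTOR ranged from −1.05 to 0.011, RICTOR from −0.45 to 0.46, PIK3R1 from −0.27 to 0.67 and TSC2 from −0.041 to 0.099. In Progenitor 2 RPTOR ranged from −0.059 to 0.094, RICTOR from −0.23 to 0.17, PIK3CA from −0.12 to 0.092, PIK3CB from −0.097 to 0.044, PIK3R1 from −0.18 to 0.25 and TSC1 from −0.35 to 0.030. Between replicates MTOR in neurons ranged from −0.011 to 0.45, and in the interaction MTOR from −0.31 to 0.18 and TSC1 from −0.22 to 0.11.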
